A study of Mus musculus with 2 samples.

Results

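The 47 genes described here build, move and anchor the actin cytoskeleton of macrophages, the network of filaments that shapes the cell, drives its crawling and closes the cup around an engulfed particle. They were chosen by symbol, from the actins themselves to the GTPases that steer assembly, and the symbols named 48 of 55536 annotated genes, since Myl12b stands for 2 gene identifiers. Macrophages were grown from bone marrow of C57BL/6J mice and treated for 75 min with lipid A at 100 ng/ml, the moiety by which Toll-like receptor 4 senses lipopolysaccharide. The cytosol was separated and its total RNA sequenced after ribosomal RNA had been removed. All material belonged to 1 group of 2 libraries, called biological replicates 1 and 2 in the labels, each from 1 µg of RNA. Both carry the same donor identifier and nothing says whether they came from separate cultures, so the spread between them may be partly technical. Age and sex were not recorded. Unstimulated cells were not analysed here, so the values are levels at 75 min and not responses to lipid A.

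As background, actin exists as single subunits (monomers) and as filaments. Thymosins and profilin hold monomers, the Arp2/3 complex starts branches on existing filaments and formins extend straight ones, capping proteins stop growth, and cofilin takes filaments apart. Myosin pulls on the filaments, talin and vinculin tie them to integrins, and small GTPases switch the nucleators on. Macrophages use the same parts for lamellipodia, podosomes and phagocytic cups.

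The libraries held 55596625 expected counts over genes in replicate 1 and 50157146 in replicate 2, where an expected count is the authors' estimate of fragments per gene. Levels are given as TPM, an abundance per transcript that corrects for length and is scaled to a fixed total. All 8 macrophage markers were above 1 TPM, led by Lyz2, Cd68 and Mpeg1, with a summed level of 6000 and 6373 TPM in replicates 1 and 2, of which Lyz2 gave 4227 and 4111 TPM. None of 10 smooth muscle and fibroblast markers reached it (sums of 0.28 and 0.31 TPM, Col3a1 at 0 in both), nor did any of 8 T, B and NK cell markers (0.03 and 0.15 TPM) or of 6 erythroid and platelet markers (0.47 and 1.25 TPM). Of 6 neutrophil markers S100a9 and S100a8 did, with a list sum of 27.6 and 27.2 TPM and Ly6g at 0. RNAs known to stay in the nucleus were present in unequal amounts, Malat1 with 158 and 799 TPM and Neat1 with 14.8 and 64.6 TPM, and both were higher in replicate 2. In bulk RNA, fewer cells of a type and less RNA per cell cannot be told apart.

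The genes were expressed at high levels as a group. All 48 had a mean of at least 1 TPM, against 39.3% of the 22015 nuclear-encoded protein-coding genes. At 10 TPM the count was 46, against 13.9%, at 100 TPM it was 18, against 1.56%, and at 1000 TPM it was 2, against 0.0818%. The median level was 73.8 ± 0.972 TPM over the 48 genes and 6.10 ± 0.117 TPM over the detected protein-coding genes (SD, n = 2), and 46 of the 48 lay above that second median. Together they held 3.91% ± 0.0476 of the TPM of protein-coding genes. Tmsb4x and Actb alone made up 41.4% of the summed level of the group in both libraries. The genes were picked as known cytoskeletal genes of macrophages, so the high share is a description of the list.

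**Figure D1:**
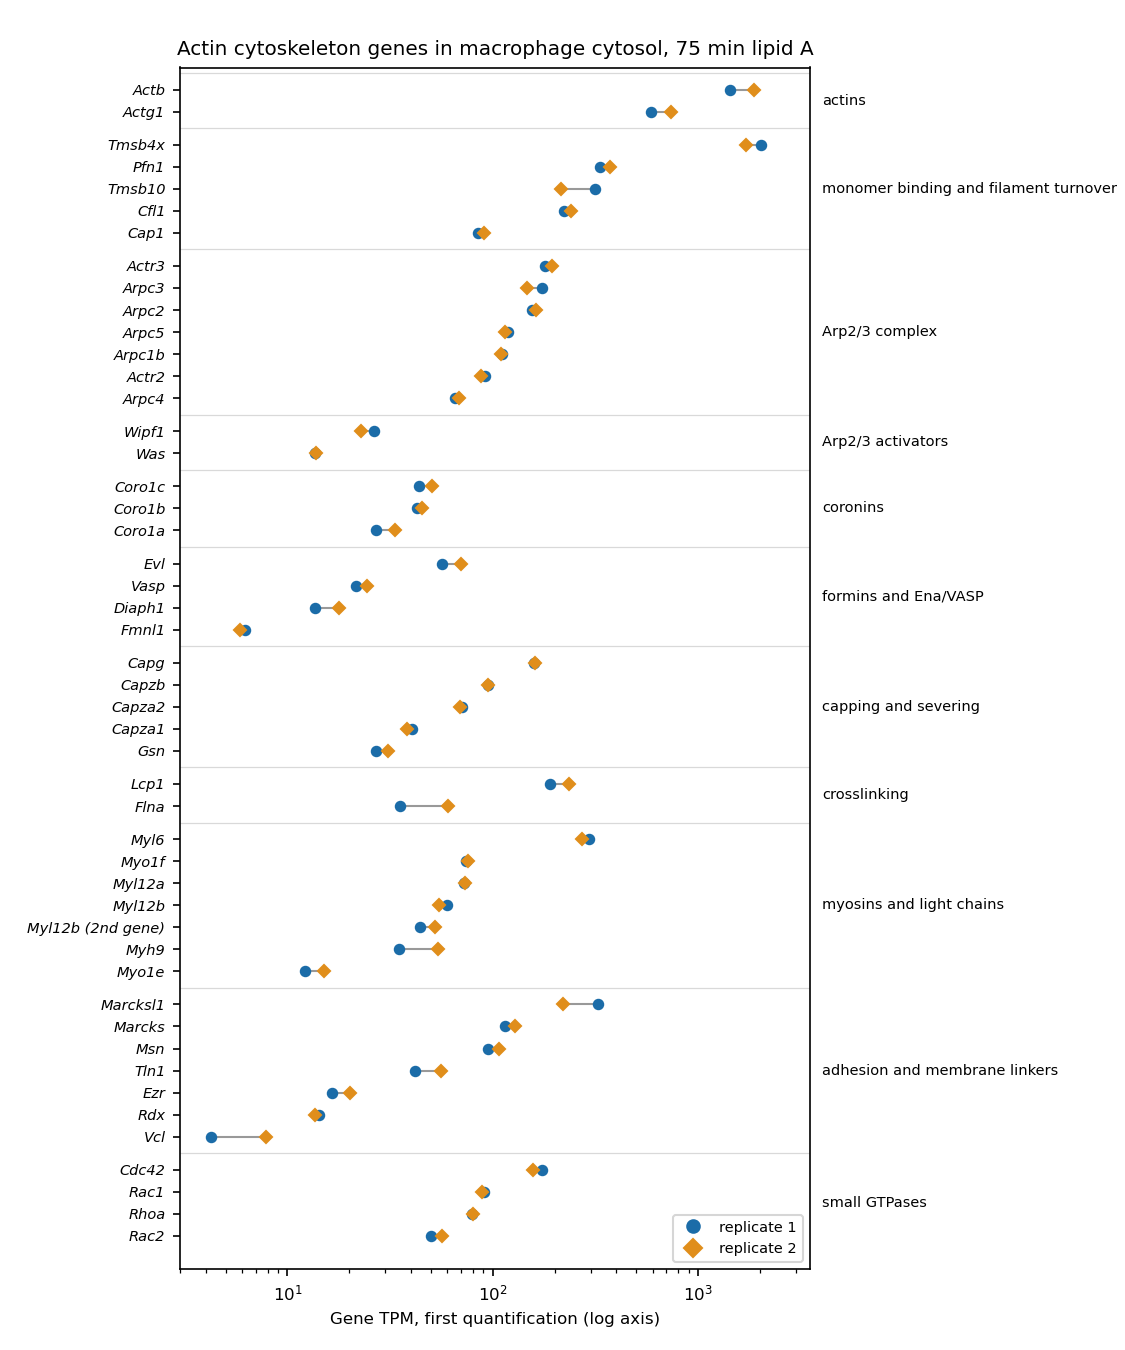
Gene TPM in replicate 1 (circles) and replicate 2 (diamonds) for all 48 genes, grouped by role, on a log axis. Tmsb4x and Actb stand above 1000 TPM, Vcl and Fmnl1 below 10 TPM, and in most rows the libraries lie close together.

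Actin itself came from the genes of the cytoplasmic forms. Actb, which encodes beta-actin (chromosome 5, 142903115 to 142906754, mm10), had 1431 TPM in replicate 1 and 1859 TPM in replicate 2. Actg1, the gene of gamma-actin (chromosome 11, 120345690 to 120348542), had 589 and 739 TPM. Both were higher in replicate 2, and the ratio of beta to gamma, at 2.43 and 2.52, moved less than either level. Their coding sequences, each of 1128 bases, share 88.7% of positions with a longest identical run of 62 bases, and the deposited posterior SD of the Actg1 count was 0.0447% of the count in replicate 2. The muscle actins were close to nothing: Acta2 had 17 and 8 counts, Acta1 0 and 2, and Actc1 and Actg2 none.

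RNAs of the monomer-binding and turnover proteins were in the same range as those of actin, with summed levels of 2985 and 2626 TPM over 5 genes, against 2019 and 2597 TPM for the actins. Tmsb4x encodes thymosin beta-4, a short peptide that holds actin monomers in reserve (chromosome X, 167207093 to 167209315), and had 2032 and 1706 TPM in replicates 1 and 2. Its relative Tmsb10 (chromosome 6, 72957347 to 72958748) had 316 and 214 TPM. Both were lower in replicate 2, the library where both actins were higher. The summed level of the thymosins divided by that of the actins was therefore 1.16 in replicate 1 and 0.740 in replicate 2 (0.951 ± 0.299, SD, n = 2), so these libraries do not fix on which side of equality it lies. The coding sequences of the pair are printed because their reads have to be told apart by base differences. Each has 135 bases, 95 of them identical (70.4%), the longest identical run is 10 bases, and the bases that differ are in capitals (GENCODE M21, mm10):
Tmsb4x: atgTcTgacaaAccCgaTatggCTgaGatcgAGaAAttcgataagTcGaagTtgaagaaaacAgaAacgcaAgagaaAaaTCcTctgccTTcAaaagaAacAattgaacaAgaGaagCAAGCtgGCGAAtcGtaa
Tmsb10: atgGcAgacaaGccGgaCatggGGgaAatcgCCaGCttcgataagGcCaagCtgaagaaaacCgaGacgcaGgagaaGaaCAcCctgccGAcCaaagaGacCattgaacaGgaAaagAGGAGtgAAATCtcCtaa

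Profilin 1, which feeds monomers to growing ends, had 331 and 374 TPM (Pfn1), and its relatives stayed near 0, with Pfn2 the highest at 0.81 and 0.63 TPM. Cofilin 1, the filament-severing protein, had 222 and 241 TPM (Cfl1), against 34.4 and 32.5 TPM for its relative Dstn, a ratio of 6.45 and 7.42. Cap1, whose protein returns monomers from cofilin to profilin, had 84.9 and 90.1 TPM, while Cap2 had no count. In each of these families the listed gene carried most of the RNA in both libraries.

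All 7 subunits of the Arp2/3 complex were present at similar levels. The actin-related subunits Actr3 and Actr2 averaged 186 ± 10.2 and 89.6 ± 2.34 TPM (SD, n = 2). The other subunits averaged 160 TPM for Arpc3, 159 TPM for Arpc2, 116 TPM for Arpc5, 110 TPM for Arpc1b and 66.8 TPM for Arpc4. The whole complex thus spanned 2.78 ± 0.0716-fold between its highest and lowest subunit, Actr3 over Arpc4. Neighbours in this order were often not separated: Arpc3 had 173 and 147 TPM, Arpc2 155 and 162 TPM, and their order differed between the libraries. The summed level of the subunits was 893 and 882 TPM, a spread of under 1% (SD 7.49 TPM on a mean of 887 TPM).

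Where the complex has alternative subunits, 1 form dominated. Arpc1b, the form known from blood cells, had 111 and 109 TPM, against 15.1 and 12.7 TPM for Arpc1a, a ratio of 7.34 and 8.59. Arpc5 had 118 and 115 TPM, against 6.51 and 6.08 TPM for Arpc5l, a ratio of 18.2 and 18.8. Actr3 exceeded Actr3b, which had 6 and 10 counts, by the widest margin of these pairs.

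The activators of the complex were rarer than the complex. Was encodes WASP, the blood-cell protein that is mutated in Wiskott-Aldrich syndrome, and had 13.6 and 13.8 TPM, against 2.11 and 2.05 TPM for its widespread relative Wasl. Its stabilising partner Wipf1 had 26.4 and 22.9 TPM, against 3.22 and 3.46 TPM for Wipf2. The level of the partner exceeded that of Was by 1.94 and 1.67-fold.

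Coronins, which help to take branches off, were led by Coro1c with 43.8 and 50.4 TPM. Coro1b had 42.6 and 45.1 TPM and Coro1a, the form known from blood cells, had 26.9 and 33.4 TPM. Coro1c and Coro1b differed by less than the spread between libraries. In the second quantification Coro1b was first in replicate 1 (22.5 against 21.1 TPM) and Coro1c in replicate 2 (19.3 against 18.7 TPM). Outside the list Coro7 reached 11.3 and 13.9 TPM.

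Factors that extend filaments spanned a wide range. Evl, a member of the Ena/VASP family, had 56.6 and 69.7 TPM, 2.63 and 2.84 times the level of Vasp at 21.6 and 24.5 TPM. Of the Evl level, 25.2 and 30.85 TPM came from Evl-207, a transcript of 569 bases without a complete coding sequence. The ratio of Evl to Vasp thus depends on whether Evl-207 is counted. The third member Enah had 10 and 11 counts. The formin gene Diaph1 had 13.6 and 17.8 TPM, against 7.99 and 8.07 TPM for Diaph2. Fmnl1, a formin of blood cells, had 6.22 and 5.90 TPM, the lowest mean of the 48 genes together with Vcl.

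Capping and severing proteins varied little between the libraries. Capg, a gelsolin relative that caps filaments without cutting them, had 158 and 160.2 TPM, which was 5.88 and 5.18 times the level of Gsn, the gelsolin gene, at 26.9 and 30.9 TPM. Capping protein is a pair of an alpha and a beta subunit. The alpha genes Capza2 (70.6 and 69.0 TPM) and Capza1 (40.3 and 38.3 TPM) added up to 1.16 and 1.14 times the beta gene Capzb (95.3 and 94.3 TPM). The summed alpha and beta RNAs were therefore near equality in both libraries of the first quantification. In the second, Capza2 had 46.9 and 34.3 TPM, Capza1 20.2 and 14.8 TPM and Capzb 49.1 and 38.0 TPM. There the alpha genes exceeded the beta gene by more.

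Of the crosslinkers, Lcp1 encodes L-plastin, the bundling protein of white blood cells, and had 190 and 235 TPM, while its relatives Pls3 and Pls1 had 330 and 294 counts and 3 and 5 counts. Flna encodes filamin A, which joins filaments into gels (chromosome X, 74223461 to 74249820), and had 35.2 and 60.7 TPM. It was higher in replicate 2 by more than 1.5-fold.

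Among the myosins, the heavy chain of non-muscle myosin II came from Myh9, with 35.0 and 54.1 TPM, while Myh10 had 0.53 and 0.59 TPM and Myh11 and Myh14 together 1 count. The class I myosins, single-headed motors at the membrane, were led by Myo1f with 74.1 and 75.9 TPM. Myo1e averaged 13.6 ± 2.01 TPM (SD, n = 2), and the unlisted Myo1c (17.4 and 19.5 TPM) and Myo1g (14.7 and 19.03 TPM) lay in the same range. Myl6, the essential light chain, had 293 and 272 TPM and exceeded every listed myosin heavy chain, and Myl6b averaged 0.385 TPM.

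The regulatory light chain genes cannot be separated cleanly. Myl12a had 72.1 and 73.1 TPM, Myl12b 60.1 and 54.6 TPM, and the second gene under the symbol Myl12b (ENSMUSG00000117098.1) had 44.5 and 52.0 TPM. That second gene has 1 transcript, which runs on chromosome 17 through both of the others on the same strand. All of its 636 bases lie in their exons: 462 in those of Myl12a and 174 in those of Myl12b. Its coding sequence of 519 bases differs from that of Myl12a at 1 base and from that of Myl12b at 17 bases, and Myl12a and Myl12b differ at 18. It was also the 1 gene of the 48 whose posterior SD exceeded 1% of the count, at 1.60% and 1.64%. The division of reads among the 3 genes is therefore uncertain, whereas the smooth muscle form Myl9 had 0 and 1 count.

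Adhesion and membrane linkers held the widest fold range of mean levels of all roles, 6.08 to 273 TPM. Marcksl1 and Marcks encode membrane-bound proteins that bind actin and phosphoinositides. Marcksl1 (chromosome 4, 129513581 to 129515985) had 326 and 220.2 TPM and Marcks had 114 and 128 TPM, so their ratio was 2.85 and 1.72. Marcksl1 was higher in replicate 1 by more than 1.5-fold. The 1 pseudogene named after a listed gene, Marcksl1-ps4, had no count in either library and either quantification.

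The proteins moesin, ezrin and radixin tie filaments to the plasma membrane. Msn had 94.4 and 107 TPM, Ezr 16.6 and 20.3 TPM and Rdx 14.3 and 13.6 TPM. Msn thus exceeded Ezr by 5.70 and 5.31-fold and Rdx by 6.59 and 7.91-fold. Talin, which links integrins to actin, had 41.6 and 55.7 TPM (Tln1), and Tln2 averaged 0.0300 TPM. Its partner vinculin (Vcl, chromosome 14, 20929398 to 21033676) had 4.24 and 7.91 TPM. It was the lowest gene of the group in replicate 1. Reads of Vcl overlap a neighbour: 2090 of the 5267 bases of its leading transcript, or 39.7%, lie in exons of Ap3m1 on the opposite strand. Vcl had 2486 and 3886 counts, against 3941 and 3098 for Ap3m1. The sources used here do not give the strand used in counting, so reads in the shared stretch may stem from either gene. In all, 15 of the 48 genes were overlapped by another gene at 1 TPM or more, and outside the Myl12 genes Vcl had the widest overlap of exons. How often other protein-coding genes are overlapped in this way was not computed.

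The 4 listed small GTPases were all present. Cdc42, which controls filopodia and polarity, had 173 and 157 TPM. Rac1, the switch behind lamellipodia, had 90.6 and 89.0 TPM (chromosome 5, 143503634 to 143528036), and Rac2, the form of blood cells, 50.2 and 56.3 TPM, a ratio of 1.81 and 1.58. On scaled counts Rac2 was slightly higher in replicate 1, with a log2 ratio of 0.10, opposite to its TPM. Rac2-203, a transcript of 254 bases, held 1.06% and 1.52% of the Rac2 count but 35.8% and 44.8% of its TPM, and the leading Rac2-201 alone had 31.98 and 30.9 TPM, so the level of Rac2 relative to Rac1 depends on how that short transcript is counted. Rhoa, which drives contraction, had 79.5 and 80.4 TPM. The unlisted Rhob was at 79.96 and 118 TPM and the unlisted Rhog, a relative of Rac1, at 84.7 and 78.6 TPM. Rhog lay under Rac1 in both libraries, and Rhob above Rhoa in both, only narrowly in replicate 1. Of the Rac1 level, 42.7 and 42.4 TPM came from Rac1-204, a transcript of 585 bases without a coding sequence. Rac1-202 had 41.3 and 39.9 TPM and Rac1-201 6.71 and 6.68 TPM. The order of Rac1 against Rhog, and its level relative to Rac2, thus depend on whether Rac1-204 is counted.

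**Figure D2:**
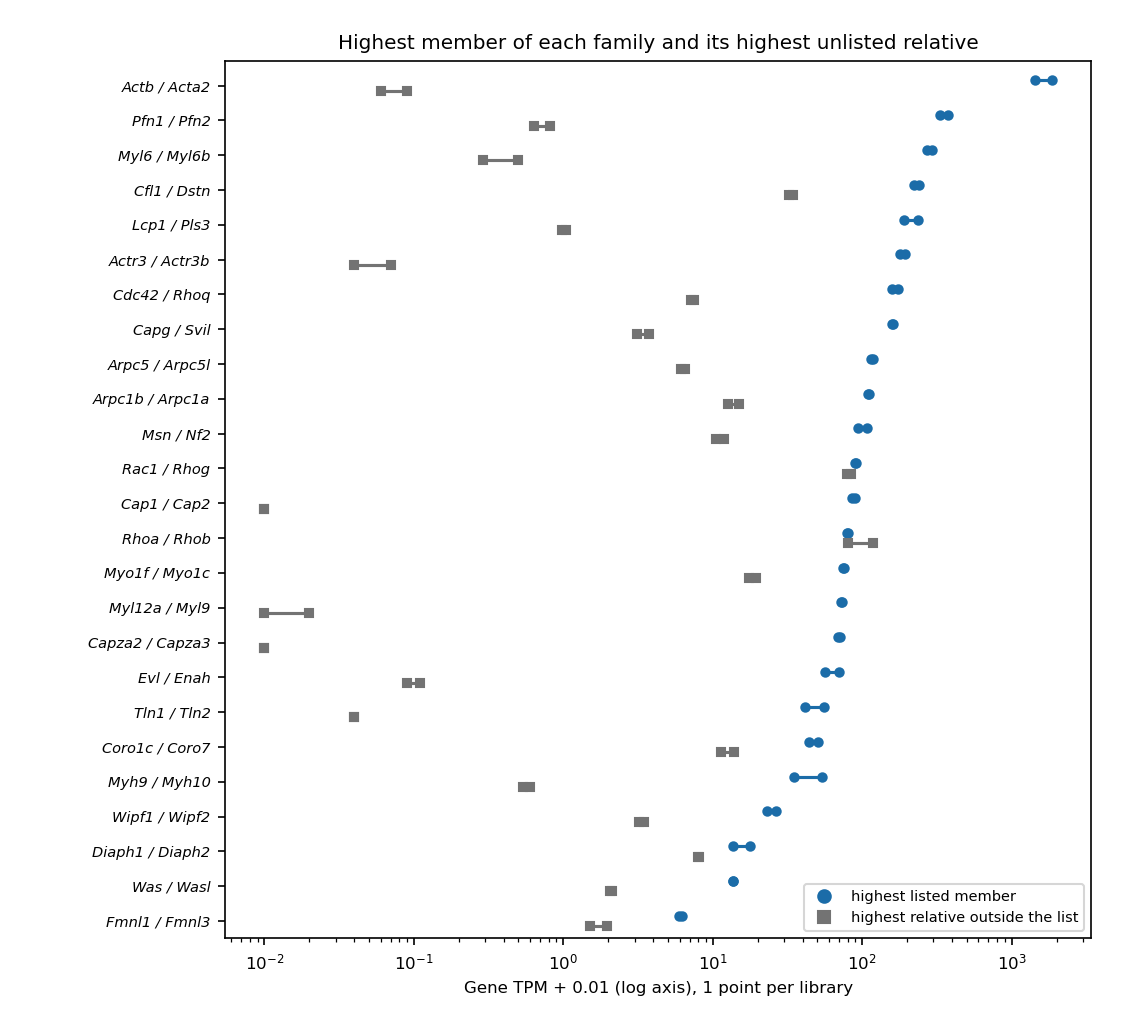
TPM + 0.01 on a log axis, 1 point per library, for the highest listed gene of each family drawn (circles) and the highest relative outside the list (squares). The listed gene is higher in both libraries in every family drawn except that of Rhoa, which lies below Rhob, and Rac1 and Rhog nearly coincide; the filamins are not drawn.

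Across the families drawn up here a listed gene was nearly always the highest. Genes and families were chosen with earlier results of these data known, so this describes the choice. Relatives were sought for 28 families, which take in most but not all of the 48 genes, and a listed gene was the highest in both libraries in 27 of them, or in 25 of the 26 that have a relative outside the list. Of the 54 unlisted relatives 23 reached 1 TPM, 9 reached 10 TPM and none reached 100 TPM. Of the 22015 nuclear-encoded protein-coding genes 39.3%, 13.9% and 1.56% did, so the relatives were near the background. The median of the relatives was 0.573 TPM, and 8 were at 0 in both libraries. With no count in a library, up to 3 counts could have been missed. The 5 highest relatives were Rhob, Rhog, Dstn, Rhoc and Myo1c.

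Genes of the same pathway that are not family members were also mostly present. Of 53 listed subunits of the WAVE complex (another activator of Arp2/3) and other motility regulators, 46 reached 1 TPM, 30 reached 10 TPM and 4 reached 100 TPM. The shares of protein-coding genes at these levels were 39.3%, 13.9% and 1.56%. The median of the 53 genes was 14.5 TPM. The 5 highest were Arhgdia (152 and 154 TPM), which keeps small GTPases inactive, the tropomyosin gene Tpm3 (135 and 139 TPM), the scaffold gene Iqgap1 (89.3 and 123 TPM), Tagln2 (97.9 and 104.9 TPM) and Arhgdib (96.5 and 81.5 TPM). The WAVE genes Wasf1 and Wasf3 had no count, while their relative Wasf2 averaged 22.5 ± 0.431 TPM (SD, n = 2; chosen after its value was seen).

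The libraries differed little for most of the genes. On TMM-scaled counts the log2 ratio of replicate 1 over replicate 2 had a median of -0.01 over the 48 genes and 0.02 over 11606 protein-coding genes that averaged at least 10 counts. Its median size without sign was 0.14 over the 48 genes and 0.15 over the 9686 protein-coding genes that averaged at least 100 counts. The SD of TPM was under 10% of the mean in 30 of the 48 genes and at least 20% in 6. Those shares were not computed over all protein-coding genes, so they describe the list only. With 1 group there is no comparison to test, and no test was made between the libraries.

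More than 1.5-fold lay between the libraries for 4 of the 48 genes, against 3.38% of the 9686 protein-coding genes. Higher in replicate 1 were 2, against 1.17%: Marcksl1, with a log2 ratio of 0.62 (95% counting interval 0.60 to 0.64), and Tmsb10, with 0.61 (0.57 to 0.65). Higher in replicate 2 were 2, against 2.21%: Vcl, with -0.84 (-0.91 to -0.77), and Flna, with -0.74 (-0.76 to -0.72). Myh9 was just inside the threshold at -0.56. These intervals cover counting error only. The same 4 genes passed it in the second quantification, and none was 2-fold apart.

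**Figure D3:**
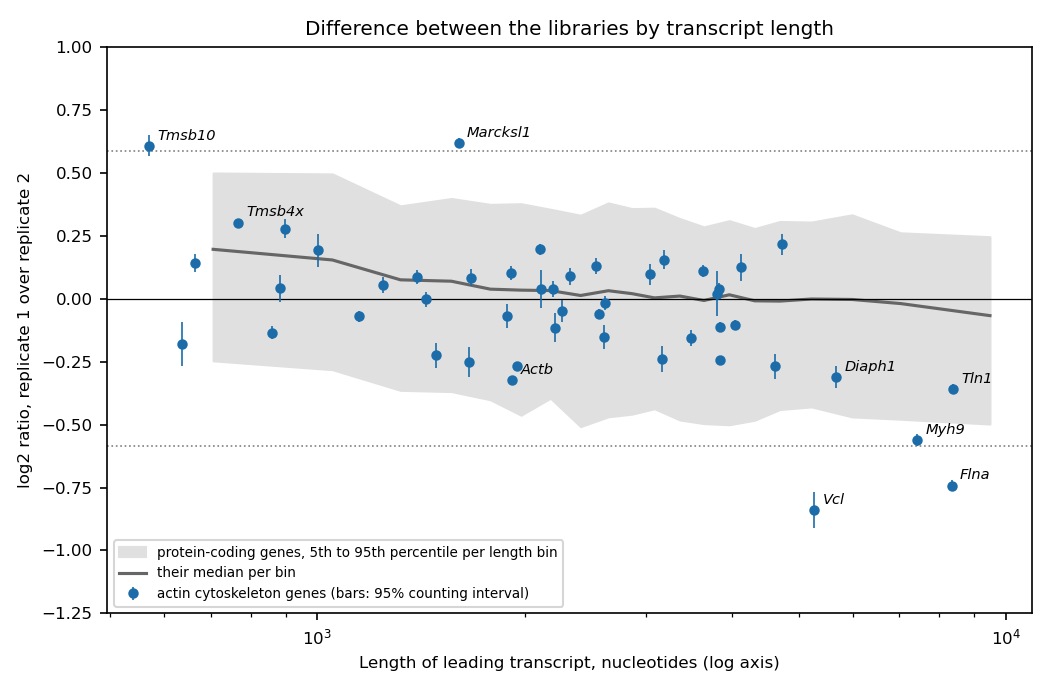
Log2 ratio of replicate 1 over replicate 2 against the length of the leading transcript (log axis) for the 48 genes, with 95% counting intervals; the grey band and line give the 5th to 95th percentile and the median of protein-coding genes in bins of length, and dotted lines mark 1.5-fold. Vcl, Flna, Myh9 and Tln1 lie low at the long end, and Tmsb10 lies high at the short end.

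The genes that were higher in replicate 2 included most of the long ones. Of the 9 genes with a leading transcript of at least 4000 bases, 7 were below 0 on the log2 scale, among them Vcl, Flna, Myh9, Tln1 (-0.36), Diaph1 (-0.31) and Myo1e (-0.27), with a median of -0.31. The median of 3093 protein-coding genes of that length was -0.02, so most of them were below 0 as well. Their exact share was not computed. Of the 7 genes under 1000 bases the median was 0.14, against 0.19 for 646 protein-coding genes. Across the 48 genes the ratio and log2 length had a Pearson correlation of -0.549 and a Spearman correlation of -0.428, against -0.202 and -0.218 across 9681 protein-coding genes. With the percentage of G and C bases in the leading transcript, the Pearson and Spearman correlations were -0.165 and -0.293 across the 48 genes. Across the 9681 genes they were -0.244 and -0.257. Length and base content were not separated. These correlations are descriptions across genes of the same pair of libraries, and genes are not independent replicates.

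Other measures moved with the same difference between the libraries. Besides Malat1 and Neat1, transcripts annotated with a retained intron took 0.314% of the counts of the 48 genes in replicate 1 and 0.452% in replicate 2, against 1.33% and 1.77% over those 9686 genes. Of the 22 genes with a mean of at least 20 such counts, 20 had the higher share in replicate 2, against 81.1% of the 2402 protein-coding genes held to the same minimum. Among the pathway genes outside the list, Zyx, an adhesion protein gene, had 23.7 and 42.5 TPM. Srf, the factor that binds the CArG box, had 5.23 and 9.42 TPM (both chosen after their values were seen). On scaled counts they had the largest excess in replicate 2 among the 53 pathway genes, whose summed level was 1339 and 1435 TPM. Others were lower in replicate 2: Lsp1 had 25.3 and 21.8 TPM, Abi1 39.4 and 36.3 TPM and Mrtfa 17.15 and 16.13 TPM (also chosen after their values were seen). Some macrophage markers were also higher in replicate 2: Itgam had 12.9 and 20.5 TPM, Adgre1 98.8 and 143 TPM, Csf1r 142 and 205 TPM and Mpeg1 460 and 649 TPM (chosen after their values were seen). On scaled counts these were at 1.54, 1.41, 1.39 and 1.36 times the level of replicate 1. The other markers of that list moved less: Mertk was at 1.31, Cd68 at 1.19, Cd14 at 1.07 and Lyz2 at 0.94 times. The part of these measures in the differences of Vcl, Flna and Myh9 was not tested.

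Serum response factor is known to act on many cytoskeletal genes through the CArG box, so promoters were searched for it on both strands. Promoter windows from 250 bases before to 50 bases after the start (RefSeq, GRCm38.p6) were found for 41 of the 47 symbols. A CArG box was in 5 of the 41 (12.2%), in 1.81% of the 27025 symbols with a window and in 1.49% of the 6920 protein-coding genes with a window and at least 1 TPM. The elements of all 5 are shown. Vcl was the only one of them more than 1.5-fold apart between the libraries. Flna, Marcksl1, Tmsb10 and Myh9 are not among them, although symbols without a window could not be searched. Capitals mark the box, counted upstream of the start from its first base, which for Arpc4 sits at the very edge of the window. The box of Myl6 belongs to its second window. The start of that window lies 866 bases downstream of the annotated 5′ end of the leading transcript Myl6-201, counted on the genome with introns. This box is therefore upstream of an internal start only. The other starts lie within 47 bases of the annotated 5′ end of the leading transcript:
Vcl (227 bases upstream, chr14:20929161-20929190, plus strand): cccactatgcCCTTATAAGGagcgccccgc
Actg1 (90 bases, chr11:120348566-120348595, minus strand): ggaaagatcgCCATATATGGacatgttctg
Myl6 (50 bases, chr10:128493040-128493069, minus strand): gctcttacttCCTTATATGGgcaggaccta
Myo1e (32 bases, chr9:70207308-70207337, plus strand): gctgaattctCCATTTATGGacagattgcc
Arpc4 (250 bases, chr6:113377863-113377882, plus strand): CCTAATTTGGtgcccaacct

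Of these genes Vcl, Actg1 and Myo1e were higher in replicate 2, by log2 ratios of -0.84, -0.27 and -0.27, Arpc4 was at -0.05 and Myl6 was higher in replicate 1, at 0.14. A match is a stretch of letters and not a measured binding site, and its part in these differences was not tested.

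At the level of transcripts the genes were divided about as often as other genes. A transcript with at least 50% of the gene's expected count was found in 44 of the 48 genes, against 91.8% of the same 9686 genes, and one with over 90% in 29 of the 48, against 53.0%, shares near the background. By share of TPM in place of counts, 42 of the 48 had a transcript at 50%. By count of the first quantification, Arpc1b, Arpc4, Diaph1 and Evl had none at 50%. For Actg1, Rdx, Lcp1, Arpc2 and Cap1 the leading transcripts share 1 coding sequence, so that their division leaves the protein unchanged. Short transcripts weigh more in TPM than in counts. Evl-207, of 569 bases, held 15.97% and 16.2% of the Evl count but 44.5% and 44.3% of its TPM, and Myl12b-202, of 369 bases and annotated with a retained intron, held 11.4% and 11.0% of the count and 45.4% and 43.5% of the TPM of its gene.

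**Figure D4:**
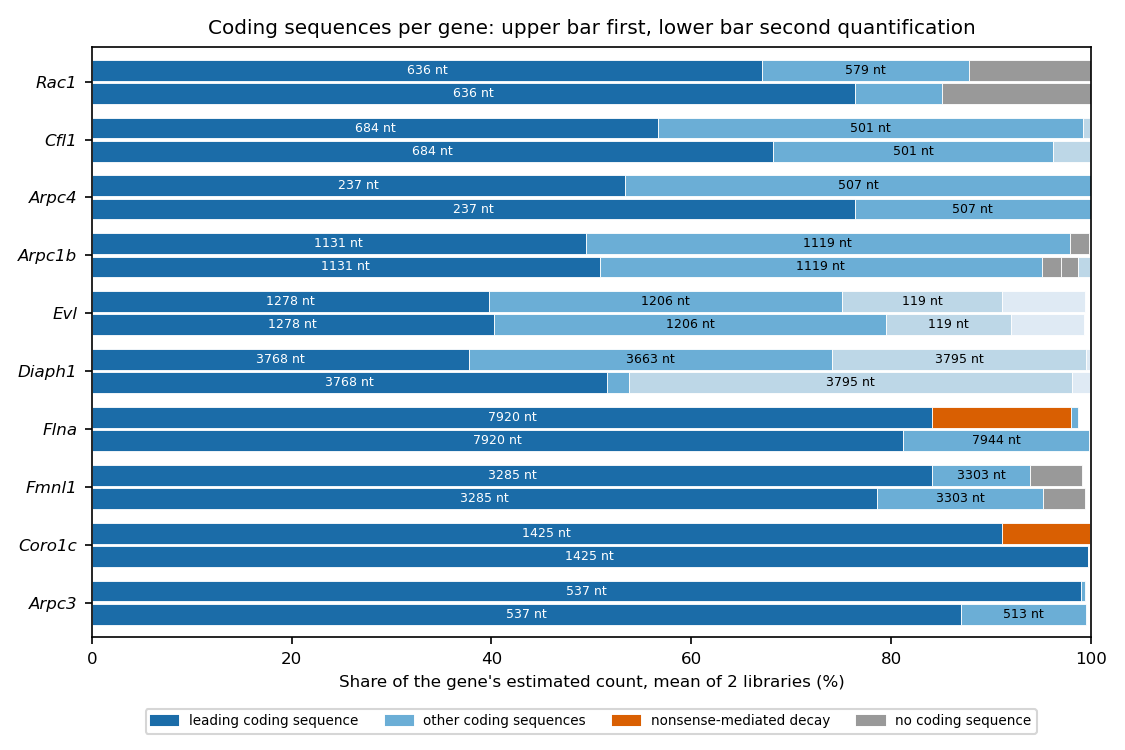
Share of each gene's estimated count by annotated coding sequence, mean of 2 libraries, for 10 genes; the upper bar of each pair is the first and the lower bar the second quantification, and numbers in the bars give coding length. The coding sequence with the largest share is the same in both for all 10 genes. Smaller shares change, among them those of Rac1, Cfl1, Arpc4, Diaph1, Flna, Coro1c and Arpc3.

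Rac1 is annotated with a longer and a shorter coding sequence. Rac1-202, of 636 bases, contains an extra block of 57 bases like that of the human splice form Rac1b, which is known as a more active switch. It took 67.4% and 66.8% of the Rac1 count in replicates 1 and 2, against 20.5% and 20.9% for Rac1-201, of 579 bases. The second quantification gave 77.0% and 75.7%, against 8.34% and 9.22%. Another transcript, Rac1-204, of 585 bases and without a coding sequence, took 12.04% and 12.3% of the count in the first quantification and 14.7% and 14.99% in the second. By TPM of the first it was level with Rac1-202, at 47.1% and 47.6% of the gene against 45.5% and 44.9%. The block is printed because it is the coding difference of these forms, with the block in capitals after shared flanks (GENCODE M21, mm10, minus strand):
Rac1-202: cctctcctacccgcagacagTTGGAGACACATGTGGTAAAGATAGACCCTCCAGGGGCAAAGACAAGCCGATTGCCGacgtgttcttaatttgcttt
Rac1-201: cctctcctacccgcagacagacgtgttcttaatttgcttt

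The annotated models differ elsewhere too: Rac1-201 runs 1848 bases further at its 3′ end, for 4159 bases in all against 2325. The share given to Rac1-202 covers the whole transcript, so use of the block and use of the nearer 3′ end cannot be told apart in these tables. The leading transcript also shares 461 bases with exons of Daglb on the opposite strand, whose count was 37.1% of that of Rac1.

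Ends of the models differed in other genes with a divided count as well. Cfl1-201 took 56.8% and 56.6% and Cfl1-202 42.4% and 42.7% of the Cfl1 count. Cfl1-202 has the usual coding sequence of cofilin 1, of 501 bases, while the 684 bases annotated for Cfl1-201 share its first 498 and then pass 2 gaps of 2 bases each in the model, and Cfl1-202 runs 1172 bases further at the 3′ end. In Arpc4, transcripts with a coding sequence of 237 bases held 53.3% and 53.5%, against 46.7% and 46.5% for the form of 507 bases. The share of the shorter form was 76.4% and 76.3% in the second quantification. Those transcripts lack 270 bases after the start codon and end 796 and 1433 bases before the other.

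Arpc1b was divided between forms that differ by 12 coding bases, shown here in capitals:
Arpc1b-211: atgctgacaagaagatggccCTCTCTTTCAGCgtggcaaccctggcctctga
Arpc1b-201: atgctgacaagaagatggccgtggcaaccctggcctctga

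Arpc1b-211, with the block, took 51.3% and 47.5%, and Arpc1b-201 took 47.7% and 49.3%, so neither led in both libraries. The model of Arpc1b-201 runs 1626 bases further at the 3′ end.

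Forms of Capzb and Myl6 differ at the end of the protein, and their division was stable. Capzb-204, whose end is that of the beta2 form of non-muscle cells, took 96.2% and 95.2%, against 3.39% and 3.73% for Capzb-203, whose end is that of the beta1 form of muscle Z-discs. The second quantification gave Capzb-203 3.52% and 4.16%. The ends are shown with the parts that differ in capitals:
Capzb-204: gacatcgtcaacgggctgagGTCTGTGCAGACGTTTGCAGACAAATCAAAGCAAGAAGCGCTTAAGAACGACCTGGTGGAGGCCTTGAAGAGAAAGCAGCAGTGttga
Capzb-203: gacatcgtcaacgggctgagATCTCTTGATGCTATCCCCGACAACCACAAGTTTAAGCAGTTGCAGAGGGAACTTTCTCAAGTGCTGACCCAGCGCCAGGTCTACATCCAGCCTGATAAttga

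Myl6-201 took 89.3% and 88.7% and Myl6-206 4.31% and 4.22% of the Myl6 count. Their coding sequences, each of 456 bases, are the same up to base 427 and then differ:
Myl6-201: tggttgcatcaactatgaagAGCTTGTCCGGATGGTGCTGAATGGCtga
Myl6-206: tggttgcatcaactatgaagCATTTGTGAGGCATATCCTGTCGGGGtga

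In some genes the share of a form depended on how the reads were assigned. Flna-201, which carries 24 extra coding bases, took 0 and 1.45% of the Flna count in the first quantification and 18.2% and 18.8% in the second, while transcripts annotated for nonsense-mediated decay took 15.2% and 12.7% in the first and 0.000247% and 1.09e-08% in the second. For Coro1c, the transcript annotated for decay took 10.4% and 7.15% in the first and 0 in the second. Diaph1-203 took 33.7% and 39.1% in the first, against 0.0000185% and 4.34% in the second. The level of whole genes was steadier: none of the 48 genes differed by more than 1.5-fold between the quantifications, against 2.23% of the 9686 protein-coding genes, and the largest difference was 0.41 on the log2 scale (Tln1, higher in the second).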

How the data were processed

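Per the labels and the deposited readme files, each library was quantified separately on mm10 with annotation M21. The first quantification used transcriptome alignments and the second used the reads directly. No aligner, quantifier, version or strand setting is given in the sources used here. Per the file headers, the authors deposited expected counts (estimated fragments, not normalized, not always whole), TPM scaled to a fixed sum over each table, and a posterior SD of each count. Spike-in entries held 0.251% and 0.204% of the count and were left out. Genes were joined by identifier, and biotypes, coordinates and coding sequences came from GENCODE M21. Transcripts of the second quantification were summed per gene.

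The 47 symbols, the roles, families, pathway lists and markers were chosen with earlier results of these data known. Detected means a mean of at least 1 TPM. For ratios, expected counts were made whole by rounding, scaled by TMM in edgeR 4.0.16 (R 4.3.3; DESeq2 1.42.0 size factors as an alternative) and increased by 0.5 before log2 ratios of replicate 1 over replicate 2 were taken. The count minimum was 10 for medians of ratios and 100 for counts of differences. Intervals are 95% Clopper-Pearson and cover counting error only. The edgeR common dispersion gave a biological coefficient of variation of 17.6% over 13398 genes. Differences between quantifications were taken on TPM rescaled over nuclear-encoded protein-coding genes. Named are the highest gene of every role, genes past a threshold, genes compared within a family, the 5 highest of each pathway list and up to 3 markers per list; others are marked as chosen after their values were seen. The scaling was tested on simulated data. Other steps ran in Python 3.11.15 (pandas 2.3.3, numpy 2.4.6, matplotlib 3.10.9, scipy 1.17.1). With 1 group, no p-value was computed, and errors are SDs over n = 2.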

Additional observations from a re-analysis of the deposited data

How the results depend on the processing

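The count at 100 TPM (18) became 8 in the second quantification and 41 on TPM rescaled over nuclear-encoded protein-coding genes, and the median level became 36.5 and 339.8 TPM. The rescaling leaves noncoding RNAs out of the total; for the second quantification the cause was not tested, and a TPM here holds only within its own table. The share of the 48 genes in protein-coding TPM (3.91%) became 3.95% in the second quantification and 3.07% of expected counts. The median log2 ratio became 0.036 when scaled by the total of protein-coding genes and 0.080 in the second quantification, with medians of 0.07 and 0.08 over protein-coding genes. The split of 23 genes higher in replicate 1 and 25 higher in replicate 2 then became 25 and 23, and 30 and 18. Those that changed sides in the second quantification were Cfl1, Cap1, Actr3, Arpc2, Arpc4, Coro1b and Marcks, and none of them was past 1.5-fold. Of the 9 long genes, 6 were below 0 there, and the share of other long genes was not computed. At 2-fold in place of 1.5-fold, 0 genes differed between the libraries in place of 4. With either library left out, the counts stayed at 48 detected, 17 to 18 at 100 TPM, 27 families and 44 to 45 genes with a main transcript, the median level at 73.1 to 74.5 TPM, the share at 3.87% to 3.94%, and the count of genes 1.5-fold apart between quantifications at 0. No paired analysis was possible because there was only 1 group. Depth limits only the genes near 0.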
